A study of Mus musculus with 12 samples.

Results

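The cytosolic ribosomal protein genes were followed in RNA of whole hearts from adult male C57BL/6N mice after acute myocardial infarction (AMI). AMI was produced by tying the left anterior descending coronary artery, and hearts were taken 1 day (day 1 AMI) or 7 days (day 7 AMI) later. Sham-operated hearts were the controls, and the labels list day 0 among the sampling days without tying it to them. There were 4 hearts in each of the 3 groups and 1 library per heart, 12 libraries in all, and the labels name the strain with no transgene or deletion. Members were chosen by symbol: Rpl or Rps followed by a number and at most one of the suffixes a, x, l or y, together with *Rplp0*, *Rplp1*, *Rplp2* and *Rpsa*. Rows with the pseudogene ending -ps were left out. The rule found 83 of 53801 genes, 51 named for the large and 32 for the small ribosomal subunit. GENCODE M21 lists 80 of the 83 as protein coding, and *Rpl32l*, *Rpl6l* and *Rps4l* as pseudogenes. Of these, 79 passed the filter on low counts. The 4 that did not were *Rpl10l*, *Rpl32l*, *Rpl39l* and *Rpl6l*.

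The cytosolic ribosome reads mRNA into protein, and each of its core proteins is normally encoded by a single active gene. The mRNAs of these genes are abundant and as a class start with a run of pyrimidines at the cap, through which growth signals control their translation. A few ribosomal proteins have a second gene that is used in certain tissues. *Rpl3l* is such a gene, active in heart and skeletal muscle, where its protein takes the place of the one made by *Rpl3*, a core protein of the large subunit near the peptidyl transferase center.

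Some of these genes have a run of pyrimidines close to their listed start, though not always at it. RefSeq promoter windows on GRCm38.p6 were matched by symbol for 61 of the 83 members, and *Rpl3*, *Rpl36* and *Rps29* had no entry. The windows below run from 10 bases before to 20 bases after the listed start and are written 5′ to 3′ on the strand of the gene, with the longest run of 8 or more pyrimidines (C or T, with at least one C) in capitals. They were chosen because the results below turn on these genes. *Eef1a1* and *Eef1a2*, which encode 2 forms of the elongation factor that brings tRNA to the ribosome, are shown as the other pair of genes with a muscle form.
Rpl3l, chr17:24727816-24727845, plus strand, the first of 2 listed starts: ttctagctctgtcatttgacctctggtgcc
Rpl39, chrX:37085203-37085232, minus strand: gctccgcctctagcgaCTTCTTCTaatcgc
Rps12, chr10:23787190-23787219, minus strand: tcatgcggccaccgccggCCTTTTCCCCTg
Rpl12, chr2:32961702-32961731, plus strand: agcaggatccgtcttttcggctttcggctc
Rplp2, chr7:141447641-141447670, plus strand: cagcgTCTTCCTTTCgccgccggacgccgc
Rpl13a, chr7:45128726-45128755, minus strand: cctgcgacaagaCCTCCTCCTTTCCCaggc
Eef1a1, chr9:78481705-78481734, minus strand: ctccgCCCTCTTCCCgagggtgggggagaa
Eef1a2, chr2:181156996-181157025, minus strand: cctggtctgcgttctcgctcactggttctc
The marked runs of *Rplp2* and *Eef1a1* span the listed start, while those of *Rpl39*, *Rps12* and *Rpl13a* begin after it. Cap sites were not mapped, and a listed start need not be the cap in these hearts. A run of 8 or more anywhere in the window was found in 39.3% of the members with a window. It was found in 12.9% of all 27025 genes of the table. A run of 6 or more was found in 62.3% and 31.8%, and a run of 6 or more that touched the bases next to the start in 52.5% and 23.8%. The window and the run length were changed after the first matches were seen, so all 3 definitions are given. Of the windows shown, those of *Rpl3l*, *Rpl12* and *Eef1a2* held no run of 8, and neither did that of *Rpsa*, which is not shown. Among ribosome assembly genes the share with a run of 8 was 8% of 25. In the 250 bases before the start, the letters CCGGAAG, an ETS site, stood on either strand in 29.5% of members and 7.83% of all genes, and those of the E-box bound by MYC, CACGTG, in 8.2% and 6.86%. A match of letters is not a site in use.

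*Rpl3* and *Rpl3l* changed in opposite directions after AMI. *Rpl3* lies on chromosome 15 (GRCm38, 80077791 to 80091868, minus strand) and *Rpl3l* on chromosome 17 (24727820 to 24736143, plus strand), and both are annotated as protein coding. In TPM, which allow for transcript length, *Rpl3* stood at 128, 177, 152 and 156 in the sham hearts, at 493, 528, 444 and 392 on day 1, and at 447, 422, 391 and 449 on day 7. Every infarcted heart was above every sham heart. *Rpl3l* stood at 272, 330, 280 and 252 TPM in sham, at 188, 160, 212 and 259 on day 1, and at 101, 66.0, 103 and 84.9 on day 7. The day 7 hearts were below all others, while the highest day 1 heart, replicate 4, lay above the lowest sham heart in TPM.

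The counts were tested with edgeR's quasi-likelihood test on 15306 genes, with adjustment by Benjamini-Hochberg (FDR) and TMM scaling, which sets libraries to a common level by genes that move little. *Rpl3* rose 2.43-fold on day 1 (log2 FC 1.28, SE 0.10, adjusted p = 3.95e-06) and was 1.91-fold higher than sham on day 7 (log2 FC 0.94, SE 0.10, adjusted p = 3.13e-06). *Rpl3l* fell by 0.81 on the log2 scale on day 1 (SE 0.15, adjusted p = 0.00083). On day 7 it was lower than sham by a log2 FC of -2.24 (SE 0.16, adjusted p = 9.06e-08) and lower than day 1 by -1.42 (SE 0.15, adjusted p = 7.89e-06). From day 1 to day 7 *Rpl3* fell by 0.35 (SE 0.10, adjusted p = 0.0115), and that call was lost with library sizes alone, nuclear library sizes, TPM in limma, and offsets for GC content and length, where the adjusted p ran from 0.133 to 0.455. All other calls of the pair held in those fits.

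The ratio of the 2 genes within one library does not depend on how libraries are scaled. *Rpl3l* made up 64.9% ± 2.56 (SD, n = 4) of the summed TPM of the pair in sham hearts, 30.8% ± 7.07 on day 1 and 17.2% ± 3.16 on day 7. In single hearts the share was 68.0, 65.1, 64.8 and 61.8% in sham, 27.6, 23.3, 32.4 and 39.8% on day 1, and 18.5, 13.5, 20.8 and 15.9% on day 7. The 3 groups did not overlap. The log2 ratio of *Rpl3l* to *Rpl3* went from 0.89 ± 0.16 in sham to -1.19 ± 0.48 on day 1 and -2.29 ± 0.32 on day 7. Each of the 3 differences had p = 0.0286 by an exact two-sided permutation test, the smallest that 4 hearts against 4 allow, and an adjusted p of 0.0343 over the 12 tests of this kind by Benjamini-Hochberg. The 2 genes share no stretch of 75 bases in 1 transcript each. *Rpl3* shares 83.2% of its stretches of that length with other genes, so its own level rests on how reads with several matches were assigned. The TPM came from RSEM, which divides such reads by expectation maximization, and for the counts their treatment is not given in the sources used here.

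**Figure D1:**
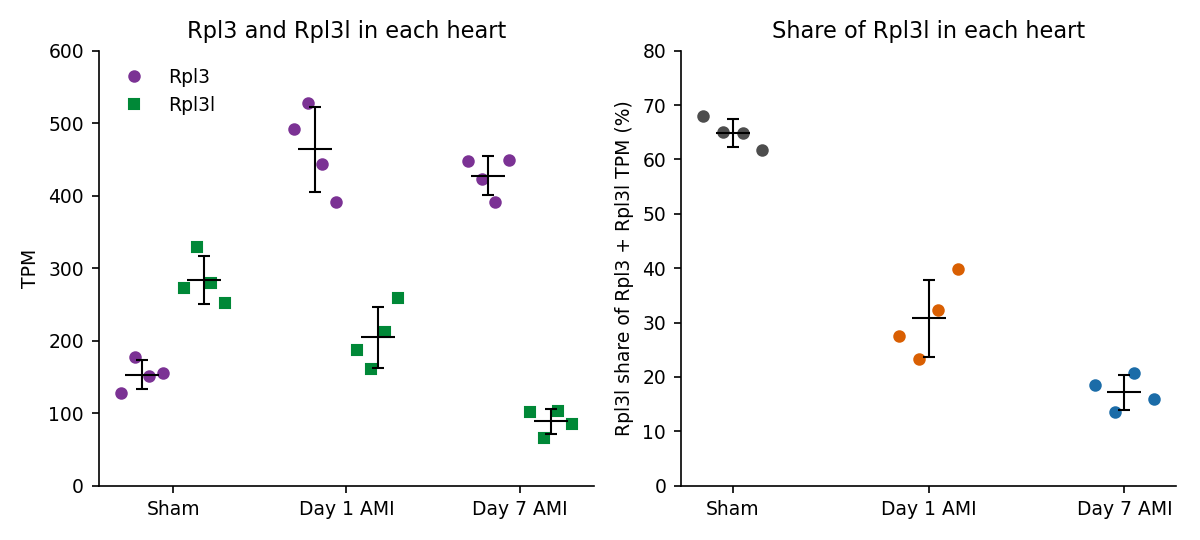
TPM of *Rpl3* (circles) and *Rpl3l* (squares) in each heart (left) and the percent of their summed TPM that was *Rpl3l* (right). Points are hearts and bars are the mean with 1 SD (n = 4). The share fell from a mean of 64.9% in sham to 30.8% on day 1 and 17.2% on day 7, without overlap.

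The sum of the pair was 437 ± 48.7 TPM in sham, 669 ± 18.2 on day 1 and 516 ± 29.7 on day 7. The day 1 hearts lay above both other groups (exact permutation p = 0.0286 for each, adjusted p = 0.0343), and day 7 overlapped sham (exact permutation p = 0.0857, adjusted p = 0.0935). TPM is relative to the rest of a library, so the sum moves with it. *Eef1a2*, the elongation factor form of muscle and neurons, and *Eef1a1*, the form of most other cells, shifted the same way. The log2 ratio of *Eef1a2* to *Eef1a1* was 0.58 ± 0.09 in sham, -0.30 ± 0.23 on day 1 and -1.58 ± 0.21 on day 7, with no overlap between groups (exact permutation p = 0.0286, adjusted p = 0.0343 for each).

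In whole hearts, fewer cardiomyocytes and less of an mRNA per cardiomyocyte cannot be told apart. Markers of cardiomyocytes fell with *Rpl3l*: with TMM, 9 of 12 were called lower on day 1 and 10 of 12 on day 7 against sham. Of all genes, 19.9% and 28.4% were called lower. Over the alternatives that kept all hearts, 4 to 10 markers were lower and 0 to 1 higher on day 1. On day 7, 6 to 10 were lower. With limma on log2(TPM + 1), 4.82% of all genes were lower and 40.3% higher on day 1, and 6.68% lower on day 7. With offsets for GC content and length these shares were 21.1%, 23.7% and 27.6%. None of the 12 markers was at 0. Their summed level ran from 72103 to 84994 TPM in sham, from 62173 to 70020 on day 1 and from 57071 to 65505 on day 7. *Rpl3l* was therefore also taken relative to the mean log2 CPM of those 12 genes. On day 1 this difference was lower than in sham by 0.33 (SE 0.16), with overlapping groups and p = 0.114 by the exact permutation test. On day 7 it was 1.46 lower than in sham (SE 0.17) and 1.13 lower than on day 1 (SE 0.17), each without overlap (exact permutation p = 0.0286, adjusted p = 0.0343).

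On day 1 the ribosomal protein genes as a whole were higher than in sham. Of the 79 tested, 50 were called higher and 2 lower, where 22% of all tested genes were called higher and 19.9% lower. The members' median log2 FC was 0.36, a 1.28-fold change, beside -0.01 over all genes, and 76 of 79 were above 0. The large subunit had 33 of 47 genes called higher and the small subunit 17 of 32, with medians of 0.36 and 0.30. The 4 day 1 hearts had higher values than all 4 sham hearts in 44 members, and lower values in 1 member, against 19.6% and 17.1% of all genes. With the FC of 2 that the study required of a DEG, only *Rpl3* remained higher and none lower, against 7.79% and 2.98% of all genes.

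After *Rpl3*, the highest log2 FCs on day 1 were those of *Rpl12*, a protein of the stalk base, *Rpl13a*, which also has a role in silencing inflammatory mRNAs, and *Rpl10*, which is added late in assembly. *Rpl12* stood at 190, 169, 162 and 181 CPM in sham and at 288, 293, 283 and 267 on day 1 (log2 FC 0.69, SE 0.07, edgeR adjusted p = 2.4e-05). *Rpl13a* went from 255, 327, 309 and 268 CPM to 470, 466, 419 and 481 (log2 FC 0.66, edgeR adjusted p = 0.000144). The groups did not overlap for either gene. *Rpl10* had a log2 FC of 0.64 and *Rpsa*, a small-subunit protein also known as the laminin receptor, one of 0.51, both called.

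The 2 genes called lower on day 1 were *Rpl3l* and *Rps4l*. *Rps4l*, which GENCODE M21 lists as a pseudogene, stood between 27.3 and 31.5 CPM in sham and between 17.9 and 28.2 on day 1 (log2 FC -0.32, edgeR adjusted p = 0.0366), with overlap. Its call was lost under 7 of the 10 other settings, with adjusted p up to 0.816. Its parent *Rps4x*, an X-linked small-subunit gene, had a log2 FC of 0.15 (edgeR adjusted p = 0.0947). *Rps27l*, a p53 target related to *Rps27*, was between 43.1 and 60.3 CPM in all hearts and was called in no comparison with TMM. It was called higher on day 7 against sham with library sizes alone (log2 FC 0.28, edgeR adjusted p = 0.00562), with GC and length offsets (0.36) and with limma on log2(TPM + 1) (0.40).

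Among the genes that were too low to test, *Rpl10l*, a testis gene, and *Rpl32l* had a count of 0 in all 12 libraries. A count of 3, taken as the floor of a library, corresponds to between 0.0933 and 0.129 CPM and covers counting error only. *Rpl39l*, also known from testis, had between 0 and 9 counts per heart and *Rpl6l* between 0 and 20.

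**Figure D2:**
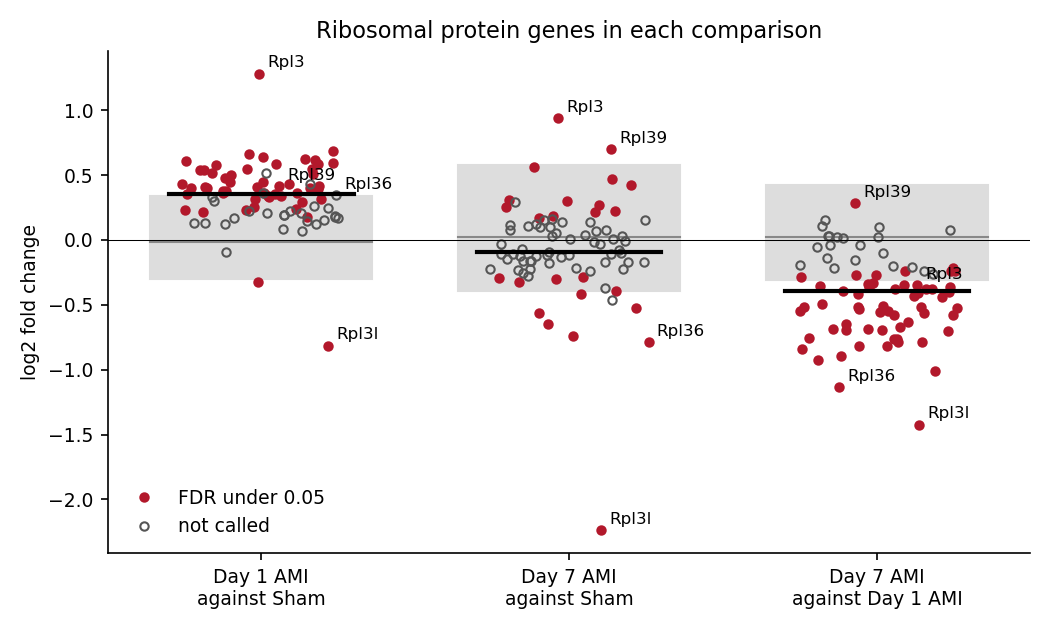
Log2 fold changes of the 79 tested ribosomal protein genes in the 3 comparisons (edgeR with TMM). Filled points were called at FDR under 0.05, black lines are the members' medians (0.36, -0.09 and -0.39), and gray boxes are the middle quartiles of all 15306 genes with their median.

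From day 1 to day 7 most members fell. Of 79, 57 were called lower and 1 higher, where 22.8% of all genes were called lower and 24.2% higher. The median log2 FC was -0.39, beside 0.02 over all genes. Values did not overlap in 46 members that were lower on day 7 and in 1 that was higher, against 20.9% and 23.5% of all genes. The large subunit had 36 of 47 called lower and the small subunit 21 of 32. At a FC of 2, 3 members were lower (*Rpl3l*, *Rpl36* and *Rplp2*), against 2.69% of all genes, and none was higher, against 8.55%. The number lower at a FC of 2 was 2 to 5 when single hearts were left out.

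*Rpl36*, a large-subunit protein, had 265, 284, 239 and 239 CPM on day 1 and 154, 90.3, 121 and 104 on day 7 (log2 FC -1.13, SE 0.18, edgeR adjusted p = 0.000162). *Rplp2*, an acidic protein of the stalk that calls in elongation factors, went from 272, 267, 242 and 284 CPM to 165, 122, 121 and 121 (log2 FC -1.01, edgeR adjusted p = 0.000156). *Rps29*, a zinc-binding protein of the small subunit, had a log2 FC of -0.93 (edgeR adjusted p = 0.00224). Day 7 replicate 1 was the highest day 7 heart for *Rpl36*, *Rplp2* and *Rps29*, and still lay below every day 1 heart. Of its stalk partners, *Rplp1* fell by 0.58 on the log2 scale (edgeR adjusted p = 0.00433), and *Rplp0*, their anchor, had a log2 FC of -0.24 (edgeR adjusted p = 0.0753). The difference between the 2 was not tested.

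*Rpl39*, a very small protein that lines the exit tunnel, was the member called higher. It stood at 118, 124, 112 and 132 CPM in sham, 168, 178, 167 and 136 on day 1, and 212, 184, 190 and 202 on day 7. All 4 day 7 hearts were above all 4 day 1 hearts, and these above all 4 sham hearts. Its log2 FC was 0.28 from day 1 to day 7 (SE 0.09, edgeR adjusted p = 0.0198). This call was lost without day 1 replicate 4 (edgeR adjusted p = 0.057, log2 FC 0.20) and without day 7 replicate 1 (edgeR adjusted p = 0.053).

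Against sham, day 7 gave no common direction. With TMM, 13 members were called higher and 12 lower, where 30.9% and 28.4% of all genes were, and the median log2 FC was -0.09 beside 0.03. Values did not overlap in 12 members that were higher and 7 that were lower, against 28.3% and 24.7% of all genes. At a FC of 2, 1 member was lower (*Rpl3l*), against 5.88% of all genes, and none higher, against 15.3%. Without day 7 replicate 1 the lower calls rose to 26 and the higher calls fell to 8. The higher calls were also 8 without day 7 replicate 4 or without sham replicate 3. Shares of all genes were not taken in the fits without single hearts, so these shifts cannot be set against them.

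The direction on day 7 moved with the scaling. TMM factors ran from 0.781 to 0.917 in sham, from 1.01 to 1.06 on day 1 and from 1.10 to 1.17 on day 7, and mitochondrial transcripts took 17.9 to 27.4%, 12.1 to 15.9% and 13.2 to 19.2% of counts. With library sizes alone, 46 members were called higher on day 7 and 1 lower, with nuclear library sizes 35 and 3, and with limma on log2(TPM + 1) 57 and 1. Of all genes, 53.8%, 48.6% and 61.6% were called higher in these fits and 10.8%, 14.5% and 6.68% lower. Those scalings moved the median of all genes as well, to 0.42, 0.33 and 0.44. Relative to the median of all genes, the members' median was -0.12 with TMM, -0.12 with library sizes alone, -0.12 with nuclear library sizes and 0.05 with limma. On day 1 the same difference was 0.37, 0.36, 0.37 and 0.44, and 74, 70 and 73 members were called higher and 1 lower under each of these 3 scalings, against 41.1%, 32.4% and 40.3% of all genes higher and 6.94%, 11.3% and 4.82% lower. From day 1 to day 7 it was -0.42, -0.41, -0.42 and -0.33, with 34, 38 and 18 members called lower and 2, 4 and 6 higher under them, against 14.2%, 14.2% and 8.51% of all genes lower and 31.2%, 33.7% and 35.3% higher.

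**Figure D3:**
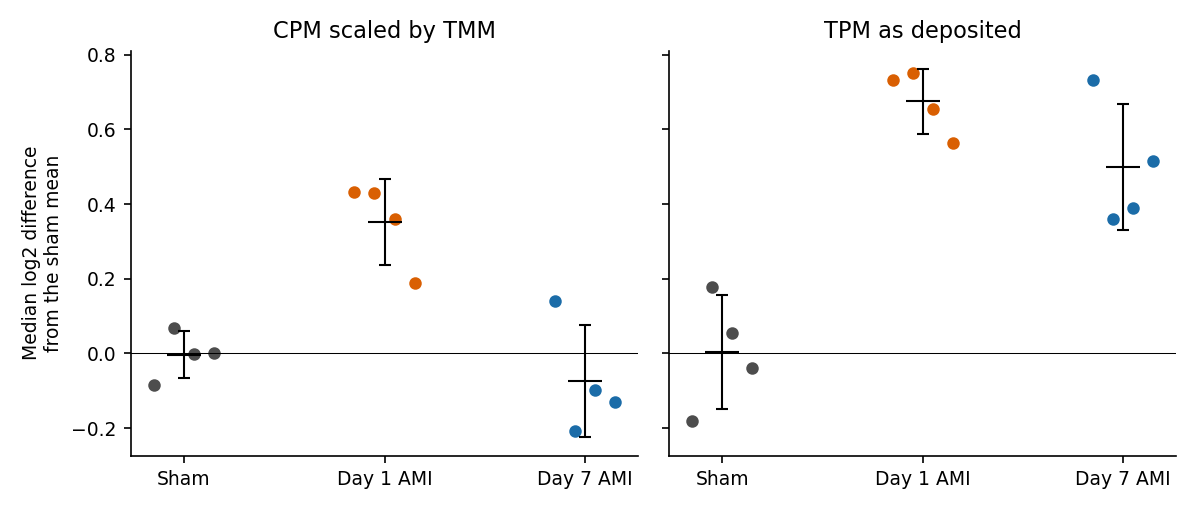
Median over the 79 tested members of the log2 difference from the sham mean in each heart, for CPM scaled by TMM (left) and for deposited TPM (right). Bars are the mean with 1 SD (n = 4). Day 1 hearts lay above sham in both (means 0.35 and 0.68), and day 7 hearts lay at -0.07 with TMM and at 0.50 in TPM.

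The heart-by-heart values show the same. With TMM the members' median difference from the sham mean was -0.08 to 0.07 in sham, 0.19 to 0.43 on day 1 and -0.21 to 0.14 on day 7. In deposited TPM it was -0.18 to 0.18, 0.56 to 0.75 and 0.36 to 0.73. Day 1 replicate 4 was the lowest day 1 heart and day 7 replicate 1 the highest day 7 heart on both scales. The members together took 5.18% ± 0.67 of all TPM in sham, 8.03% ± 0.44 on day 1 and 7.13% ± 0.87 on day 7 (SD, n = 4).

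The members also differed with base composition on day 7. Across the 79 genes, the Spearman correlation of the day 7 against sham log2 FC with GC content of 1 transcript per gene was -0.38, beside -0.04 across 15291 tested genes. On day 1 it was 0.01 in members. Genes share their libraries and are not independent replicates. Members are also short, with a median transcript of 886 bases beside 2997. Library-wise offsets for GC content and length were added after the data were seen. They were fitted on tested genes with a mean log2 CPM above 1 and applied to all. With them, 41 members were called higher on day 7 against sham and 2 lower (median 0.34). On day 1, 63 were higher and 2 lower, and from day 1 to day 7, 12 were higher and 23 lower. Of all genes in that fit, 33% were called higher and 27.6% lower on day 7 against sham, 23.7% and 21.1% on day 1, and 25.6% and 21.8% from day 1 to day 7. Relative to the median of all genes, which was 0.05 on day 7, the members' median was 0.28 on day 7 against sham, where it was -0.12 with TMM, 0.41 on day 1, and -0.16 from day 1 to day 7. The direction on day 7 against all genes was thus turned by these offsets. The part of GC content and length in the day 7 values was not tested.

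**Figure D4:**
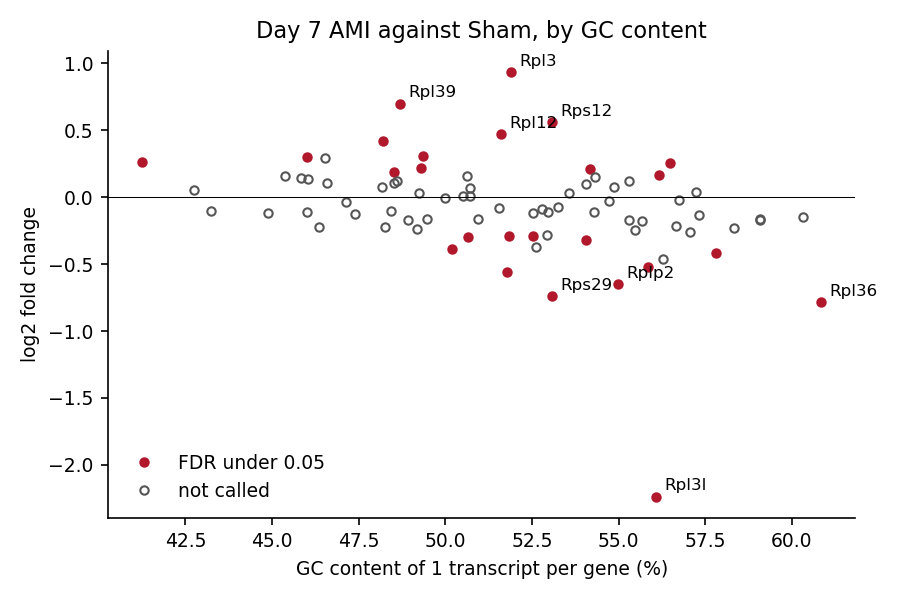
Log2 fold change of day 7 AMI against sham for the 79 tested members by GC content of 1 transcript per gene. Filled points were called at FDR under 0.05. *Rpl36* lies at 60.8% GC and -0.79, *Rpl39* at 48.7% and 0.70.

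The members called higher on day 7 against sham in every fit run, beside *Rpl3*, included *Rpl39* (log2 FC 0.70, SE 0.09, edgeR adjusted p = 1.7e-05), *Rps12*, a small-subunit protein (log2 FC 0.56, SE 0.08, edgeR adjusted p = 3.1e-05), and *Rpl12* (log2 FC 0.47, SE 0.07, edgeR adjusted p = 7.8e-05). *Rps12* stood at 239, 240, 216 and 229 CPM in sham, 338, 353, 340 and 318 on day 1, and 382, 335, 313 and 336 on day 7, so that the 2 groups after AMI overlapped with each other and neither with sham. *Rpl12* had 254, 242, 231 and 245 CPM on day 7.

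Those called lower with TMM included *Rpl3l*, *Rpl36* (log2 FC -0.79), *Rps29* (-0.74), *Rplp2* (-0.65), *Rps13*, *Rps2*, *Rps15*, *Rps9*, *Rpl24*, *Rpl14* and *Rpl7a*. Apart from *Rpl3l*, none of the calls named here held in the limma fits on TPM, where *Rpl36*, *Rps29*, *Rplp2* and *Rps13* kept a negative log2 FC and *Rps2*, *Rps15*, *Rps9*, *Rpl24*, *Rpl14* and *Rpl7a* had a positive one, called higher for *Rpl14* (0.49) and *Rpl24* (0.25) with limma's adjusted p of 0.0083 and 0.029 on log2(TPM + 1). *Rps2*, a small-subunit protein near the mRNA entry, had 747, 810, 838 and 815 CPM in sham, 979, 1030, 983 and 1002 on day 1, and 656, 531, 519 and 527 on day 7. It was thus called higher on day 1 and lower on day 7 with TMM (log2 FC 0.32 and -0.52), and its day 7 log2 FC was 0.03 in limma on log2(TPM + 1).

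Taking both steps, 40 members were called higher on day 1 and then lower from day 1 to day 7 with TMM, against 6.51% of all genes, among them *Rpl5* and *Rpl11*, which enter the large subunit with its small rRNA and restrain MDM2, and *Rps6*, the substrate of S6 kinase. This number was 32 with library sizes alone, 35 with nuclear library sizes, 16 with limma on log2(TPM + 1) and 20 with GC and length offsets, where 7.49%, 6.36%, 4.87% and 6.78% of all genes had the pattern. With TMM another 16 were called only in the second step, as lower, 9 only in the first as higher, and 11 in neither, against 11.2%, 9.64% and 32.7% of all genes. The single genes were *Rpl39*, which rose in both steps, *Rpl3l*, which fell in both, and *Rps4l*. In 8 members no comparison was called with TMM, against 25.4% of all genes, among them *Rpl31*, *Rpl7*, *Rplp0*, *Rps27* and *Rps27l*. All 5 were called higher on day 7 against sham with library sizes alone and with limma on log2(TPM + 1), for example *Rpl7* at a log2 FC of 0.55 (edgeR adjusted p = 1.77e-05) and 0.60. The members called in no comparison numbered 2 with library sizes alone, 2 with nuclear library sizes, 1 with limma and 4 with the offsets. *Rps27* had the highest mean TPM of all members in each group (3031, 3500 and 4247), and *Rps4l* the lowest of those tested (47.8, 46.9 and 66.2). The order of the members by mean TPM changed little, with Spearman correlations across the 79 genes of 0.97 between sham and day 1 and 0.90 between sham and day 7.

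Some of these genes have close copies or carry other genes. At least 50% of the 75-base stretches were found in another gene for 27 of 79 members, with a median of 36.3%, while rows named as pseudogenes held 0.0744 to 0.154% of the members' counts. In 7 members, among them *Rpl23a*, *Rpl30*, *Rpl31*, *Rpl35*, *Rpl5* and *Rps25*, an antisense gene covered 10% or more of exon bases, and the strand counted is not given in the sources used here. Small nucleolar RNA genes lay inside 29 of the tested members. On day 1, 23 of these 29 and 27 of the other 50 were called higher, against 22% of all genes. The median log2 FCs of the 2 sets were 0.40 and 0.32, and their difference was not tested.

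Genes that build and serve the ribosome were read from lists in the same fit. Of 7 ribosomal protein and related genes that the symbol rule misses, 6 were called higher and 1 lower on day 1. From day 1 to day 7, 4 were called lower and none higher. Of all genes, 22% were called higher and 19.9% lower on day 1. From day 1 to day 7, 22.8% were lower and 24.2% higher. *Rpl22l1*, the paralog of *Rpl22*, had a log2 FC of 0.97 on day 1 and -1.29 from day 1 to day 7, both called, and *Rpl22* had 0.18 (called) and -0.15 (not called). *Rps27a*, a member that encodes ubiquitin joined to a small-subunit protein, was higher on day 1 (log2 FC 0.58).

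Most ribosome assembly factors were higher on day 1 than in either other group. On day 1, 27 of 30 were called higher and none lower, with a median log2 FC of 0.49. From day 1 to day 7 all 30 were called lower, with a median of -0.65. Of all genes, 22% were called higher on day 1 and 22.8% lower from day 1 to day 7. *Rrp12*, which helps export pre-ribosomes, had a log2 FC of 1.59 on day 1 and -1.58 from day 1 to day 7. *Nhp2*, of the H/ACA particles that modify rRNA, had 1.18 and -1.14, and *Fbl*, the rRNA methyltransferase fibrillarin, 0.80 and -0.83, all called. Over the alternatives that kept all hearts, 25 to 29 were higher on day 1 and 18 to 30 lower from day 1 to day 7. The same shares of all genes were 40.3% and 8.51% with limma on log2(TPM + 1), and 23.7% and 21.8% with GC and length offsets. On day 7 against sham, 9 assembly factors were lower and none higher with TMM, against 28.4% and 30.9% of all genes. With limma on log2(TPM + 1), 20 were higher and none lower, against 61.6% and 6.68% of all genes.

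RNA polymerase I, which makes rRNA, did not move as one on day 1 with TMM. Of 14 genes tested, 2 were called higher and 3 lower on day 1, against 22% and 19.9% of all genes. From day 1 to day 7, 8 were called lower and none higher, against 22.8% and 24.2% of all genes. *Polr1b* rose (log2 FC 0.46) and *Polr1a*, the largest subunit, fell by 0.35, both called with TMM. The day 1 calls of the list ran from 2 to 10 higher and from 0 to 3 lower over the alternatives that kept all hearts. With library sizes alone and with limma on TPM, 10 of the list were higher on day 1. Of all genes, 41.1% were higher and 6.94% lower with library sizes alone, and 40.3% and 4.82% with limma on log2(TPM + 1). Translation factors had 14 of 42 called higher and 5 lower on day 1, against 22% and 19.9% of all genes. On day 7 against sham, 4 were higher and 25 lower with TMM, against 30.9% and 28.4% of all genes. With limma on log2(TPM + 1), 27 were higher and 2 lower on day 7, against 61.6% and 6.68% of all genes. *Eef1a1* rose on day 1 (log2 FC 0.65) and again by day 7 (0.61 over day 1), and so did *Pabpc1*, the poly(A)-binding protein (0.70 and 0.37). *Eif6*, which keeps the subunits apart, rose and fell with the assembly factors (0.93 and -1.02).

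Of 20 regulators, 4 were called higher and 2 lower on day 1 with TMM, against 22% and 19.9% of all genes. On day 7 against sham, 5 were higher and 10 lower with TMM, against 30.9% and 28.4%. Other fits of day 7 gave 9 higher and 1 lower (library sizes alone), 7 and 2 (nuclear library sizes), and 13 and 0 (limma on log2(TPM + 1)). Of all genes, 53.8%, 48.6% and 61.6% were higher in these 3 fits and 10.8%, 14.5% and 6.68% lower. *Myc*, a transcription factor that drives ribosome production, had a log2 FC of 2.01 on day 1 (SE 0.23, edgeR adjusted p = 4.13e-05) and of 0.94 on day 7 against sham. *Trp53*, which encodes p53, had 0.70 and 1.08, and *Sesn1*, an inhibitor of mTORC1, -1.05 and -0.71, all called, though the day 7 call of *Sesn1* was lost with library sizes alone and with limma. *Mtor* had -0.14 on day 1 (not called) and -0.37 on day 7 (called), and *Larp1*, which binds the pyrimidine start, had 0.25 on day 1 (not called) and -0.30 on day 7 (called). Both day 7 calls were lost with library sizes alone (log2 FC 0.03 and 0.10), nuclear library sizes (-0.06 and 0.0034) and limma (0.17 and 0.25), and *Larp1* was called higher on day 1 in those 3 fits.

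**Figure D5:**
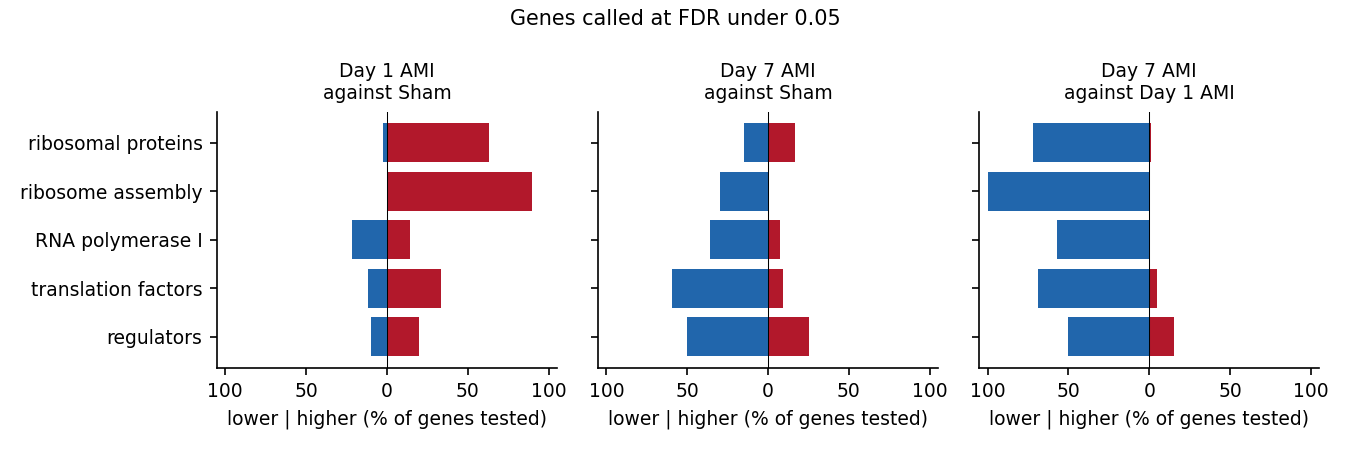
Percent of the genes tested in each list that were called higher (right, red) or lower (left, blue) at FDR under 0.05 (edgeR with TMM) in the 3 comparisons. On day 1, 50 of 79 ribosomal protein genes and 27 of 30 assembly genes were higher, against 22% of all genes. From day 1 to day 7, 57 of 79 and 30 of 30 were lower, against 22.8% of all genes.

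Markers of other cells changed in the same hearts. With TMM, 22% of all genes were called higher and 19.9% lower on day 1 against sham. On day 7 against sham these shares were 30.9% and 28.4%. Leukocyte markers were called higher in 12 of 12 on both days, and their summed level ran from 222 to 386 TPM in sham, from 734 to 1138 on day 1 and from 1165 to 1857 on day 7. Fibroblast markers were higher in 8 of 10 and lower in 1 on day 1, and higher in 10 of 10 on day 7. Their sums were 519 to 627, 780 to 1025 and 4063 to 7596 TPM in sham, on day 1 and on day 7. Markers of dividing cells were higher in 8 of 10 and lower in 1 on day 1, and higher in 9 of 10 on day 7. Their sums were 4.81 to 12.8, 19.5 to 23.8 and 122 to 209 TPM in the same order. Endothelial markers were lower in 4 of 10 and higher in none on day 1 with TMM, and higher in 7 and lower in 1 on day 7. Over the alternatives that kept all hearts, 1 to 5 were lower and 0 to 3 higher on day 1. The same shares of all genes were 4.82% and 40.3% with limma on log2(TPM + 1), and 21.1% and 23.7% with GC and length offsets. The summed level of the endothelial markers ran from 440 to 653 TPM in sham, from 568 to 646 on day 1 and from 946 to 1136 on day 7. The members' median was highest on day 1. The sums of the leukocyte, fibroblast and dividing-cell lists were highest on day 7, and day 7 replicate 1 had the highest of each of these 3 sums. The leukocyte list held no marker particular to neutrophils, so its sum does not show how those cells changed. Red cell transcripts reached 15170 TPM in sham replicate 2 and at most 4820 in any other heart. Atrial and skeletal muscle markers had at most 1 of 5 and 2 of 6 genes called in either direction. The summed level of the atrial markers still ran from 166 to 1540 TPM in sham, from 1202 to 2930 on day 1 and from 3416 to 4785 on day 7. That sum did not stand for the list as a whole. Against sham, 1 atrial marker was called higher and 1 lower on each day, and the median log2 FC was 0.20 on day 1 and -0.77 on day 7. The sum of the skeletal muscle markers ran from 3152 to 4259, from 2892 to 3563 and from 2931 to 3663. The part of these cells in the ribosomal protein values was not tested.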

How the data were processed

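Counts and TPM of 12 heart libraries were analysed. Per the labels and the study's methods, the authors isolated total RNA, made cDNA with random hexamers, and read both ends of fragments at 150 bases; Cutadapt was used for trimming and STAR 2.4.0j for alignment to GRCm38 (mm10). The submitters' processing notes also list CASAVA 1.8 and RSEM. The authors deposited raw read counts per gene without normalization and, from RSEM, TPM per gene. The tool behind the counts, their strand and their treatment of reads with several matches are not given in the sources used here. Depth ran from 23204551 to 32166517 counts per library.

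Genes passing filterByExpr by group were fitted with edgeR 4.0.16 (R 4.3.3; TMM, quasi-likelihood, 3 groups of 4 in 1 fit), with Benjamini-Hochberg adjustment over 15306 genes and calls at FDR 0.05. SEs are those implied by the F statistic. CPM are scaled by TMM. Single values were compared with exact two-sided permutation tests, whose smallest p is 0.0286. The labels give 1 sample per heart but no further detail, so p-values measure the spread between these samples. Alternatives were DESeq2 1.42.0, log2(TPM + 1) and log2(TPM + 0.1) in limma 3.58.1, size factors (RLE), library sizes alone, library sizes without mitochondrial genes (nuclear), no filter, only the groups compared, a replicate block, each heart left out and, added after seeing the data, GC and length offsets by lowess (span 0.3). Replicate numbers did not clearly pair the hearts. Within groups, no library pair had a chi-square below 9.25 per degree of freedom, so none repeated another. The code was tested on simulated data.

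Annotation was GENCODE M21. Named genes were the *Rpl3* pair, other genes with the suffix l and their parents, *Rplp0*, *Rplp1*, *Rplp2*, *Rpsa* and *Rps27a*, the 4 highest and 4 lowest in each comparison, the 5 with the highest TPM, those called against the majority or nowhere, and up to 4 per other list with the *Eef1a* pair. *Rpl5*, *Rpl11*, *Rps6*, *Rpl22*, *Fbl*, *Larp1* and *Mtor*, and the members named for antisense genes, were added after their values were seen. The members and lists were chosen with earlier results of these data known. Single results of a few genes are not reported here, and counts over all members include them. The authors' own comparisons were not used.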

Additional observations from a re-analysis of the deposited data

Results flagged for a closer look

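A heart stood far from the other 3 of its group in 12 of 120 groups of 4 tested, where the gap to the nearest heart, divided by the range of the group, was above the critical value of Dixon's test. Chance flags about 1 in 20 groups. These were log2 CPM of single genes: in sham *Rplp1* (0.854), *Rps14* (0.847) and *Rpsa* (0.856), on day 1 *Rpl31* (0.905), *Rpl32* (0.857), *Rps14* (0.872), *Rps15* (0.842) and *Rpsa* (0.911), and on day 7 *Rplp0* (0.834), *Rplp2* (0.963), *Rps2* (0.899) and *Rps4x* (0.835). The ratio of *Rpl3l* to *Rpl3*, its share and the members' median were not among them in any group.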

How the results depend on the processing

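The ratio of *Rpl3l* to *Rpl3* kept its direction in every alternative. As raw counts it differed by -2.11, -3.20 and -1.09 (exact permutation p = 0.0286 for each). Without single hearts the log2 ratio differed by -2.28 to -1.91 (day 1 against sham), -3.30 to -3.05 (day 7 against sham) and -1.27 to -0.90 (day 7 against day 1), where 3 hearts against 4 allow no p under 0.0571. With the replicate block as an exact sign-flip test the differences were -2.08, -3.18 and -1.10, each at p = 0.125, the smallest that test can give. Replicate numbers did not clearly pair the hearts. Correlations in 12 pairs of same-numbered hearts ran from -0.24 to 0.23, and 4 were over 0.1. In 4 of the 12 pairs the best match had the same number. Replicate 3 matched its own number best between sham and day 1 (0.12), sham and day 7 (0.13), and day 1 and day 7 (0.15). With the replicate block in edgeR, 44 members were higher and 1 lower on day 1, 9 higher and 11 lower on day 7, and 1 higher and 56 lower from day 1 to day 7.

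Members called lower on day 1 were 1 with library sizes alone, nuclear library sizes, limma, no filter and only the groups compared, and 1 to 2 without single hearts. Members called higher on day 1 at a FC of 2 were 2 with limma and with no filter. Higher and lower calls on day 7 against sham were 46 and 1 (library sizes alone), 35 and 3 (nuclear), 57 and 1 (limma, both pseudocounts) and 41 and 2 (GC and length offsets), and 8 to 15 and 9 to 26 without single hearts. At a FC of 2 the higher ones were 2, 2, 4 and 3 under those settings. From day 1 to day 7, higher and lower calls were 2 and 34, 4 and 38, 6 and 18, and 12 and 23, and the higher call was 0 to 1 without single hearts. At a FC of 2 the lower ones were 1 with nuclear sizes, limma and the offsets, and 2 to 5 without single hearts (5 without day 7 replicate 1, and 2 without day 1 replicate 1 or 4 or day 7 replicate 2, 3 or 4). The members' median log2 FC was 0.62, 0.51 and 0.67 on day 1 (library sizes alone, nuclear, limma), 0.30, 0.21, 0.49 and 0.34 on day 7 (with the offsets last), and -0.25, -0.15 and -0.12 from day 1 to day 7 (nuclear, limma, offsets). *Rpl3* from day 1 to day 7 lost its call at -0.22 (library sizes alone), -0.20 (nuclear), -0.11 (limma) and -0.14 (offsets). For the fits without single hearts, shares of all genes were not taken. The causes were not tested.

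With GC and length offsets, the log2 FC changed sign for day 7 against sham *Rpl14* 0.059, *Rpl24* 0.17, *Rpl32* 0.30, *Rpl41* 0.34, *Rpl7a* 0.091, *Rplp0* 0.15, *Rplp1* 0.40, *Rps15* 0.098, *Rps27l* 0.36, *Rps4l* 0.15 and *Rps9* 0.076, for day 7 against day 1 *Rpl10* 0.066, *Rpl12* 0.012, *Rpl31* 0.15, *Rpl7* 0.12 and *Rps27l* 0.17. With library sizes alone, the log2 FC changed sign for day 7 against sham *Rpl14* 0.11, *Rpl24* 0.098, *Rpl32* 0.32, *Rpl41* 0.20, *Rpl7a* 0.11, *Rplp0* 0.28, *Rplp1* 0.26, *Rps27l* 0.28, *Rps4l* 0.23 and *Rps9* 0.066, for day 7 against day 1 *Rpl31* 0.092 and *Rpl7* 0.076, for day 1 against sham *Rps27* 0.18. With nuclear library sizes, the log2 FC changed sign for day 7 against sham *Rpl14* 0.013, *Rpl24* 0.0068, *Rpl32* 0.22, *Rpl41* 0.12, *Rpl7a* 0.016, *Rplp0* 0.19, *Rplp1* 0.17, *Rps27l* 0.19 and *Rps4l* 0.14, for day 7 against day 1 *Rpl31* 0.11 and *Rpl7* 0.097, for day 1 against sham *Rps27* 0.064. With limma on log2(TPM + 1), the log2 FC changed sign for day 7 against sham *Rpl14* 0.49, *Rpl24* 0.25, *Rpl32* 0.44, *Rpl41* 0.32, *Rpl7a* 0.25, *Rplp0* 0.41, *Rplp1* 0.40, *Rps15* 0.10, *Rps2* 0.025, *Rps27l* 0.40, *Rps4l* 0.47 and *Rps9* 0.23, for day 7 against day 1 *Rpl31* 0.22, *Rpl7* 0.078 and *Rplp0* 0.0092, for day 1 against sham *Rps27* 0.20. With limma on log2(TPM + 0.1) the same genes changed sign as with a pseudocount of 1, at values that differed by less than 0.01 (*Rpl7* 0.079). With DESeq2 and with RLE size factors *Rps12* was at -0.00183 and -0.00192 (day 7 against day 1) and *Rps27* at -0.016 (day 7 against sham), and with only the groups compared *Rps27* was at -0.00611. Without single hearts the sign changed in *Rpl13a* -0.026 to 0.094 (day 7 against sham), *Rpl31* -0.22 to 0.038 (day 7 against day 1), *Rpl32* -0.20 to 0.0020 (day 7 against sham), *Rps12* -0.042 to 0.056 (day 7 against day 1), *Rps14* -0.0046 to 0.044 (day 7 against day 1), *Rps27* -0.17 to 0.0096 (day 1 against sham), *Rps27* -0.0035 to 0.15 (day 7 against day 1) and *Rps27* -0.072 to 0.11 (day 7 against sham). Of these 95 sign changes, 58 were between fits that called the gene in neither. Counts limit the genes under the floor, and 4 hearts a group limit the precision of single members.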
